A study of Mus musculus with 6 samples.

Results

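The genes described here encode 35 chromatin silencing factors, chosen by name: histone H3 lysine 9 (H3K9) methyltransferases and their readers, H3.3 chaperones and remodellers, Polycomb subunits, histone deacetylases with the demethylase LSD1, and methyl-CpG binding proteins. A gene took the probe set that names it alone with the highest mean signal. In this way 34 of the 35 genes were measured, among 13277 measured genes of 18193 named on the array. Suv39h1 had no probe set naming it alone and was not analysed here.

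RNA came from 2 mouse embryonic stem cell lines on Affymetrix arrays, 1 array for each line at days 0, 4 and 7. Both lines are triple knockouts that lack their own Dnmt1, Dnmt3a and Dnmt3b, the genes of the DNA methyltransferases, and both express a DNMT1 ubiquitously: the complete protein in the full-length line, and a DNMT1 without its N-terminal 602 amino acids in the deletion line. Day 0 cells were stem cells in medium with 10% FBS and leukaemia inhibitory factor (LIF). Day 4 cells had been embryoid bodies for 1 day and then adherent cells for 3 days, all without LIF. Day 7 cells had a further 3 days in medium with 10% KSR and 10 ng/ml Activin A, so that time, medium and Activin A go together. Each form of DNMT1 was present in 1 line, and the form cannot be told apart from other differences between the lines, called full-length cells and deletion cells below. The source label of the deletion line's day 0 sample describes differentiated cells, while its title gives day 0; the title was used.

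Silencing of genes and repeats rests on several systems that add or read marks on chromatin. SETDB1, brought to DNA by TRIM28, and the enzymes of the SUV39H and EHMT families methylate H3K9, which HP1 proteins bind. Polycomb repressive complex 2 (PRC2) methylates H3 lysine 27 and PRC1 ubiquitylates histone H2A. PRC1.6, a variant PRC1 that is known for silencing germ cell genes in embryonic stem cells, reaches DNA through E2F6 and the MGA-MAX pair. Methyl-CpG binding proteins read DNA methylation, the mark that DNMT1 copies when DNA replicates, and bring in deacetylases.

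Levels are log2 MAS5 signals, and levels of different genes are not comparable because probe sets differ. All 34 measured members had a mean signal above the floor of 5.37, below which values were set to it. The array medians lay between 6.02 and 6.19. The 9 markers of pluripotent stem cells were above the floor on all 6 arrays, with a summed linear signal between 80524 and 141038 that was highest at day 0 in each line. The 12 fibroblast markers, which feeder cells would carry, had summed signals of 7583 and 15632 at day 0 in full-length and deletion cells and of 1162 to 2520 on the other arrays. The 6 myeloid markers summed to 2670 and 11020 at day 0 and to between 559 and 1520 later. Extraembryonic endoderm markers summed to 620 and 685 at day 0, and at day 7 to 1635 in the full-length and 4985 in deletion cells. Of 6 primitive streak markers 3 were measured, and the 5 that had a probe set summed to between 251 and 692. RNA of a mixture of cells was measured, so fewer cells of a type and less RNA per cell cannot be told apart.

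Transcripts of the silencing factors were present throughout and differed little. The distance between the highest and the lowest of the 6 arrays had a median of 0.78 over the 34 members (log2), against 0.88 over all measured genes, and ranged from 0.22 for Rnf2 to 1.62 for Mbd2. It reached 1, a 2-fold distance, in 9 members (26.5%), against 42.0% of all measured genes. The members were brighter, with a median level of 10.77 against 8.84.

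Differences between days and between lines were tested with limma over all measured genes in a model with line and day as additive factors. Without replicates of a line and day, the error in this model is the disagreement of the lines about a time difference, or of the days about a line difference. No member passed an adjusted p of 0.05 in any of the 4 comparisons. The lowest adjusted p was 0.086 for day 4 over day 0 (Eed), 0.302 for day 7 over day 4 (Mtf2), 0.080 for day 7 over day 0 (Mbd2) and 0.246 for the line difference (Morc3). Among all genes, 1.58% were called for day 4 over day 0, 0.0151% for day 7 over day 4, 1.03% for day 7 over day 0 and 0% for the line difference.

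At an unadjusted p under 0.05, day 4 over day 0 had 0 members higher and 4 lower, while 10.2% of all genes were higher and 6.09% lower at that level. For day 7 over day 4 there were 3 higher and 3 lower (6.29% and 5.63% of all genes). Day 7 over day 0 gave 2 higher and 7 lower (10.7% and 6.58%). The line difference gave 6 higher and 1 lower in deletion cells (5.05% and 7.19%). The median difference of the members was -0.14 for day 4 over day 0, against 0.04 over all genes, and -0.26 against 0.06 for day 7 over day 0. Both lines were lower at day 7 than at day 0 in 16 members (47.1%, against 25.6% of all genes) and higher in 5 (14.7%, against 32.8%). Of 19 measured genes of an S phase and mitosis list, 2 had a positive and 17 a negative difference at day 7 over day 0, with 0 called, 7 lower at an unadjusted p under 0.05, and a median of -0.32. Its summed signal went from 175160 to 129939 in the full-length and from 157492 to 126040 in deletion cells. Its part in the members' values was not tested.

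PRC2 held the members with the largest modelled differences at day 4. Of its 6 measured subunits, 5 had a negative difference for day 4 over day 0, with a median of -0.42, 0 called and 3 lower at an unadjusted p under 0.05, while 5 were higher in deletion cells by sign (median 0.28). Mtf2, an accessory subunit that guides PRC2 to CpG islands, had levels of 13.06, 11.66 and 12.32 at days 0, 4 and 7 in full-length cells and of 12.77, 12.21 and 13.01 in deletion cells. Both lines were at their lowest at day 4, and deletion cells were back above their day 0 level at day 7. Day 4 over day 0 was -0.98 (log2, SE 0.24, adjusted p = 0.100), and day 7 over day 4 was 0.73 (SE 0.24, adjusted p = 0.302). These comparisons share the day 4 arrays. Eed, the subunit that binds methylated lysine 27, read 12.78, 12.07 and 12.20 in full-length cells and 13.05, 12.40 and 12.75 in deletion cells. The day 0 level was the highest in each line, and day 4 over day 0 was -0.68 (SE 0.16, adjusted p = 0.086).

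Ezh2, the main methyltransferase of PRC2 in stem cells, had levels of 12.58, 12.14 and 11.96 in full-length cells and of 12.73, 12.26 and 12.03 in deletion cells. The 2 lines followed nearly the same course, with a day 7 over day 0 difference of -0.66 (SE 0.15, adjusted p = 0.091). Its paralogue Ezh1, known for its role in cells that no longer divide, read 9.22, 8.82 and 9.41 against 8.34, 8.95 and 9.06. Here the lines were furthest apart at day 0. Day 7 over day 0 was 0.46 (SE 0.30, adjusted p = 0.486), but a second Ezh1 probe set was higher in deletion cells at days 0, 4 and 7, by 0.54, 1.14 and 0.46. Jarid2, which recruits PRC2 in stem cells, was at 12.85, 12.23 and 11.97 in full-length cells and at 12.80, 12.63 and 12.52 in deletion cells. The day 7 over day 0 difference was -0.58 (SE 0.19, adjusted p = 0.175), and it was larger in full-length cells, -0.88, than in deletion cells, -0.28.

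Suz12, the scaffold subunit of PRC2, followed different courses in the 2 lines by the probe set used. Its levels were 12.68, 11.71 and 12.32 in full-length cells and 12.06, 12.24 and 13.21 in deletion cells. Full-length cells were below their day 0 level at both later days, whereas deletion cells were above theirs at both. Day 7 minus day 0 was -0.36 in the full-length and 1.15 in deletion cells, a difference between lines that rests on 1 array each and was not tested. The 4 other Suz12 probe sets that were brightest after the one used gave day 7 line differences of 0.94, 0.94, 1.07 and 0.97, against 0.89 for the one used. The dimmest of its 6 gave 2.56. At day 4 the probe sets disagreed: all 5 others were below day 0 in full-length cells, but 4 of the 5 were also below it in deletion cells, with differences from -2.30 to 0.18. The 4 brighter ones gave day 7 minus day 0 values of -0.31 to 0.22 in full-length and of 0.59 to 1.26 in deletion cells.

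**Figure D1:**
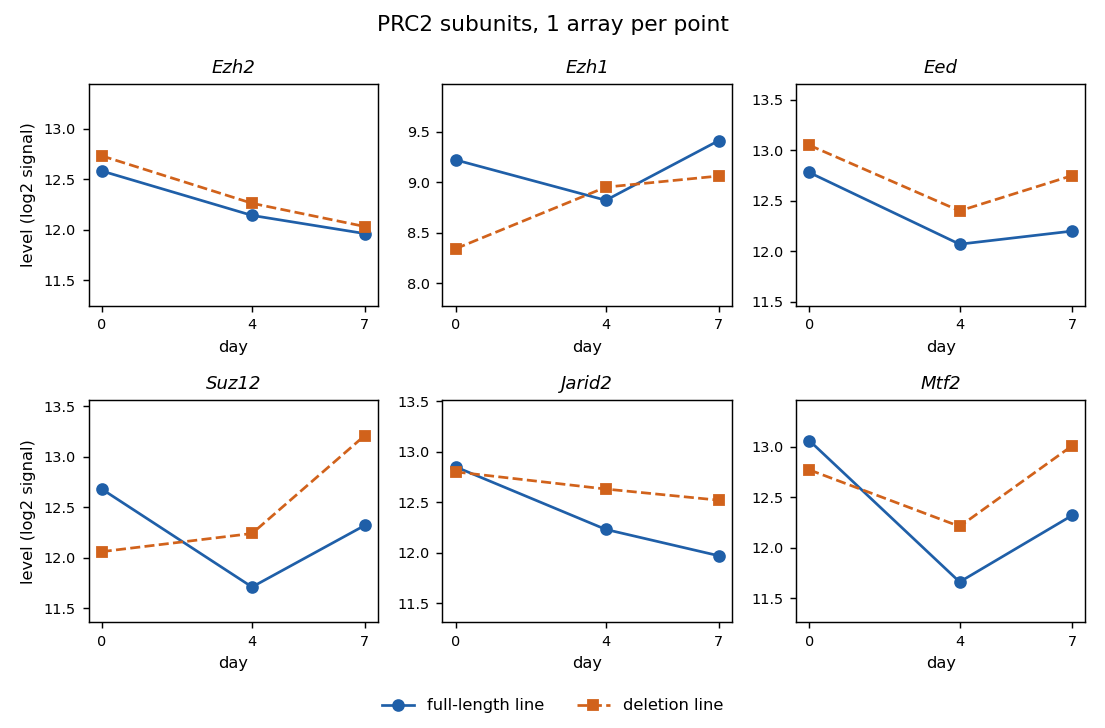
Levels (log2 MAS5 signal, vertical axes of equal span) of the 6 PRC2 subunits by day, with full-length cells as blue circles and deletion cells as orange squares, 1 array per point. Ezh2 ran in parallel in both lines, from 12.58 to 11.96 and from 12.73 to 12.03, whereas Suz12 ended at 12.32 in the full-length and at 13.21 in the deletion line.

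The Suz12 promoter is shown because this gene had the largest difference between lines in day 7 minus day 0 among the 6 PRC2 subunits. The window holds the 250 bases before the RefSeq start site (GRCm38.p6, chr11:79992856-79993105, plus strand). Capitals mark the letters TTCCCGC, an E2F site, whose first base lies 218 bases before the start site.
Suz12: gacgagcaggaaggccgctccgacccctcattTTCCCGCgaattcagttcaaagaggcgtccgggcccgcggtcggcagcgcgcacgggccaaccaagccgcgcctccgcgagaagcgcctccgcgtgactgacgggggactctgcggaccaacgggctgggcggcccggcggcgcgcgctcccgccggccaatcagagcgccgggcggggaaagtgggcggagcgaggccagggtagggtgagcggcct
On either strand and with 50 further bases after the start site, these letters stood in the windows of 4 of the 32 members that had one (12.5%), namely Suz12, Hells, Suv39h2 and Trim28, and in those of 5.29% of 27025 genes. The members' windows were rich in CpG, with a median of 29 CpG pairs per 300 bases against 7 over all windows. A match is a description of the letters only.

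Of the H3K9 group, 8 of 9 genes were measured and 7 of the 8 had a negative difference at day 7 over day 0, with a median of -0.36 and 0 called. Cbx5, which encodes HP1 alpha, had the lowest value. It read 11.21, 11.30 and 10.17 in full-length cells and 10.83, 10.53 and 10.33 in deletion cells, so that day 7 was the lowest day in both. Day 7 over day 0 was -0.77 (SE 0.24, adjusted p = 0.168). Suv39h2, which trimethylates H3K9, was at 9.82, 9.76 and 9.25 against 9.90, 9.75 and 9.35, almost the same course in both lines (-0.56, SE 0.21, adjusted p = 0.227). Its second probe set gave a higher day 7 than day 0 level in full-length cells, by 0.60.

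Ehmt1 and Ehmt2 encode the partners GLP and G9a, which work as a dimer on H3K9. Ehmt1 levels were 10.50, 10.93 and 10.48 in the full-length and 10.61, 10.88 and 10.39 in deletion cells. Day 4 was the high point in both, at 0.35 over day 0 (SE 0.18, adjusted p = 0.392), and day 7 over day 4 was -0.47 (SE 0.18, adjusted p = 0.356). Ehmt2 was lowest at day 7 in each line and higher in deletion cells at every day, with levels of 10.18, 10.01 and 9.95 against 10.73, 10.50 and 10.20. That line difference was 0.43 (SE 0.16, adjusted p = 0.349). A dimmer Ehmt2 probe set gave line differences of 0.88, 0.99 and -0.08 at days 0, 4 and 7.

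Setdb1, the H3K9 methyltransferase that silences endogenous retroviruses, stayed between 9.96 and 10.67 on all arrays, and the highest value was that of deletion cells at day 7. There the line difference was 0.71, and 2.03 by a dimmer probe set. Its corepressor Trim28 read 14.57, 14.09 and 13.87 in full-length cells and 14.16, 14.12 and 14.17 in deletion cells. Full-length cells were lower at each later day and deletion cells were flat by this probe set. The other Trim28 probe set gave -0.33 at day 4 and -0.17 at day 7, each minus day 0, in deletion cells. Cbx1, the gene of HP1 beta, was higher in deletion cells at all 3 days, with 12.53, 12.44 and 12.43 against 13.00, 12.73 and 13.06 (line difference 0.46, SE 0.13, adjusted p = 0.301). Its second brightest probe set, however, was lower in deletion cells at days 0 and 4, with differences of -0.18 and -0.54. Cbx3, the gene of HP1 gamma, was measured by a dim probe set with levels of 6.06 to 6.75. The 4 other probe sets of Cbx3 also name a pseudogene and were left out.

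Among the H3.3, remodelling and other heterochromatin factors, Morc3 encodes a nuclear ATPase of the MORC family linked to H3.3 and the silencing of retroviruses. By the probe sets used, it had the largest modelled line difference of all members. Dimmer probe sets of Atrx, Setdb1 and Suz12 gave larger ones, up to 1.54, 1.02 and 1.555, and the other Morc3 probe sets gave 0.72 and 0.42. Morc3 levels were 11.83, 11.21 and 11.61 in full-length cells and 12.37, 12.22 and 12.61 in deletion cells. All 3 values of deletion cells lay above all 3 of full-length cells. The line difference was 0.85 (SE 0.15, adjusted p = 0.246). Hells, the remodelling ATPase LSH that supports DNA methylation, showed the same order, with 13.03, 12.78 and 12.58 against 13.37, 13.27 and 13.30 (0.52, SE 0.13, adjusted p = 0.288). The 3 arrays of each line did not overlap in 5 members by the probe sets used. Deletion cells were higher for 4 of 34 (Morc3, Hells, Ehmt2 and Cbx1), against 5.26% of all genes. They were lower for 1 of 34 (E2f6), against 6.6% of all genes. By their other probe sets the lines overlapped for Hells, Ehmt2, Cbx1 and E2f6. For Morc3 they stayed apart by the second brightest probe set but overlapped by the dimmest.

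Atrx and Daxx form the chaperone that places H3.3 in heterochromatin. Atrx was at 12.10, 12.13 and 11.71 in full-length cells and at 11.89, 12.19 and 12.37 in deletion cells. By this probe set the lines were 0.06 apart at day 4 and 0.66 at day 7. Its 6 other probe sets, all dimmer, gave day 7 differences from 1.40 to 1.84, but they also put deletion cells higher at day 0, by 0.17 to 1.17, and at day 4 in 4 of 6 cases (from -1.21 to 1.62). Daxx ranged from 10.48 to 11.10, and both ends of that range were day 7 values, the higher in deletion cells. Smchd1, which keeps the inactive X chromosome silent, read 11.45, 11.58 and 11.60 in full-length cells and 11.34, 11.65 and 11.47 in deletion cells, a day 4 over day 0 difference of 0.22 (SE 0.16, adjusted p = 0.574).

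The PRC1 core varied little. Rnf2, the ubiquitin ligase RING1B, stayed between 12.08 and 12.30, the narrowest range of any member, and its paralogue Ring1 between 7.61 and 8.01. Bmi1, a PCGF subunit of canonical PRC1, read 9.67, 9.63 and 9.21 in the full-length and 9.51, 9.64 and 9.85 in deletion cells. The lines were thus apart at day 7 alone, by 0.64, which its second probe set gave as 0.12. Cbx7, the subunit by which canonical PRC1 binds methylated lysine 27 in stem cells, read 10.38, 9.89 and 9.90 in full-length cells and 9.80, 10.19 and 9.57 in deletion cells. The lines went opposite ways between days 0 and 4. Day 7 over day 4 was -0.31 (SE 0.25, adjusted p = 0.702), and 0.073 without the deletion day 4 array.

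Of 5 PRC1.6 subunits, 1 was higher in deletion cells at day 0 (median difference -0.22) and 4 were higher at day 7 (median 0.83). L3mbtl2, an MBT-domain subunit, had levels of 10.97, 10.15 and 9.80 in full-length cells and of 10.69, 10.45 and 10.93 in deletion cells. It was lower at each later day in full-length cells and in deletion cells ended 0.24 above its day 0 level. The day 7 line difference, 1.13, was the largest of any member at any day by the probe sets used. L3mbtl2 had 1 probe set, and dimmer probe sets of other members gave larger values, up to 2.56 for Suz12 at day 7. Max, the partner of MGA and of MYC, read 10.20, 10.20 and 9.58 against 9.98, 9.48 and 10.41. Day 7 was its lowest day in full-length cells and its highest in deletion cells.

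Mga, whose protein binds DNA with MAX, was at 10.83, 10.41 and 10.10 in full-length cells and at 11.36, 10.82 and 10.98 in deletion cells. It was higher in deletion cells at each day (line difference 0.61, SE 0.16, adjusted p = 0.292), but its next brightest probe set gave the opposite sign at every day, from -0.40 to -0.08. Pcgf6, the PCGF subunit that defines the complex, read 11.74, 11.40 and 11.05 against 11.57, 11.39 and 11.42. By this probe set the lines differed little until day 4. The next brightest Pcgf6 probe set gave line differences of 0.66, -0.13 and 1.11 at days 0, 4 and 7. E2f6, the DNA-binding repressor of the E2F family, was the exception: it read 9.83, 10.07 and 10.29 in full-length cells and 9.35, 9.56 and 9.48 in deletion cells, which were lower at all 3 days (line difference -0.60, SE 0.17, adjusted p = 0.301). A dimmer E2f6 probe set gave 0.60, -0.26 and -0.84 at days 0, 4 and 7.

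**Figure D2:**
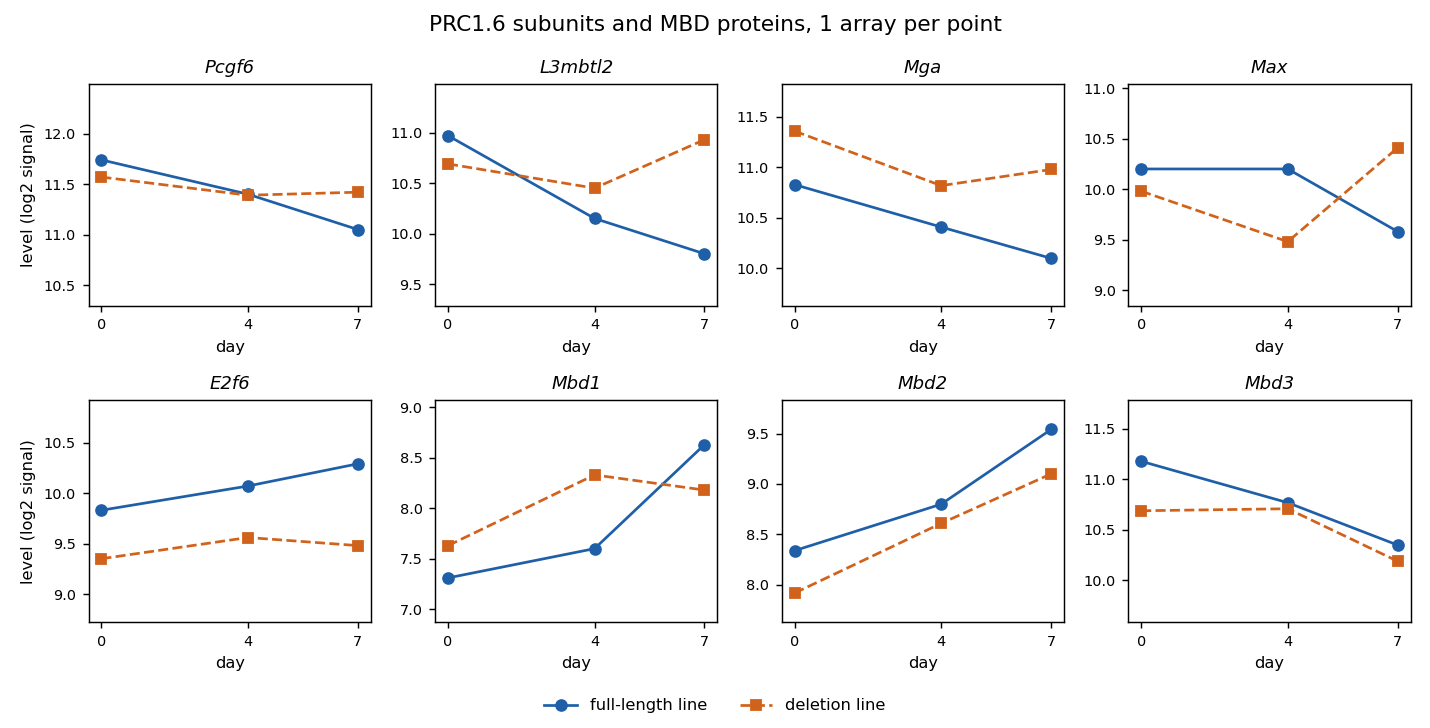
Levels (log2 MAS5 signal, vertical axes of equal span) of 5 PRC1.6 subunits and 3 methyl-CpG binding proteins by day in the full-length line (blue circles) and the deletion line (orange squares), 1 array per point. At day 7 L3mbtl2 stood at 9.80 and 10.93, E2f6 at 10.29 and 9.48, and Mbd2 was at its highest in both lines, 9.54 and 9.10.

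The germ cell genes that PRC1.6 is known to silence were read beside its subunits, from a list of 20 of which 17 were measured. Of the 17, 0 were called higher and 1 lower for day 4 over day 0 (Stra8), against 0.7% of all genes called lower, and 0 in the other comparisons. The Stra8 call was kept without 1 of the 6 arrays in turn and lost without the others. Under 10 other processing settings the Stra8 call was kept in 5. At an unadjusted p under 0.05, 7 list genes were higher at day 7 over day 4 and 0 lower, against 6.29% and 5.63% of all genes. Summed over the list, the signal was 12088, 6961 and 10428 in full-length cells and 10636, 8691 and 27763 in deletion cells. The sum was highest on the day 7 array of deletion cells. By the probe sets used, 4 of the 5 PRC1.6 subunits were above their full-length levels on that array, and E2f6 was below its own, by -0.81. The other Mga probe sets gave day 7 line differences of -0.08 to 0. The sums are of linear signals, so the brightest genes weigh most in them. Dazl was the brightest list gene on that array, with levels of 10.48, 10.07 and 13.53 at days 0, 4 and 7 in deletion cells. A sum without Dazl was not computed, so how much of the sum came from the other list genes was not determined. How the subunits and the germ cell genes relate was not tested.

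Promoters of 3 of these genes, chosen after values were seen, are shown. They carry letters that PRC1.6 subunits are known to read. These are the E-box CACGTG of MGA-MAX, the E2F letters TTCCCGC or their reverse complement GCGGGAA, and the T-box letters AGGTGTGA of MGA. With 50 further bases after the start site, the windows of these 3 genes and of Hormad1 and Stag3 held both the E-box and the E2F letters. Hormad1 and Stag3 are not shown. The E2F letters of Slc25a31 lie in those 50 bases and are not printed. Each promoter shown is the 250 bases before the RefSeq start site, in gene orientation, with matches in capitals. Slc25a31, a testis ADP/ATP carrier, lies at chr3:40708621-40708870 on the plus strand. Sycp3, of the meiotic chromosome axis, lies at chr10:88459337-88459586 on the plus strand. Ddx4, the germ cell helicase VASA, lies at chr13:112652311-112652560 on the minus strand (all GRCm38.p6).
Slc25a31: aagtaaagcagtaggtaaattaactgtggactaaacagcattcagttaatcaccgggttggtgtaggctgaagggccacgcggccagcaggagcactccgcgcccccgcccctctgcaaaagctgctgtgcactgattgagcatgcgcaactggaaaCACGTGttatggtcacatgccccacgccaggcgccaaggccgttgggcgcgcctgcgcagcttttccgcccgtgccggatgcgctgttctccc
Sycp3: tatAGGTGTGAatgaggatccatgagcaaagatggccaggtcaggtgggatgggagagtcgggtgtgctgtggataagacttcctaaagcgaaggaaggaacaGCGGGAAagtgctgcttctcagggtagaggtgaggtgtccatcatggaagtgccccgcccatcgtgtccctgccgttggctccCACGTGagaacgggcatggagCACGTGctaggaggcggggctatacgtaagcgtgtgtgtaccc
Ddx4: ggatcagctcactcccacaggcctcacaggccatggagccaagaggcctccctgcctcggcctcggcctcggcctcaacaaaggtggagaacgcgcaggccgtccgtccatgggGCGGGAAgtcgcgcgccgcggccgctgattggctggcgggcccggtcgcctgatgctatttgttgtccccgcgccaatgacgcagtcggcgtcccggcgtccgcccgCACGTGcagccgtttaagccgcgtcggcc
The E-box stood in the windows of 10 of the 19 list genes that had one (52.6%), against 8.09% of all 27025 genes, and the E2F letters in 9 (47.4%), against 5.29%. These windows had a median of 24 CpG pairs, against 7 over all windows, and the E-box and the E2F letters each hold a CpG. The T-box letters, searched on both strands like the others, stood in 1 list gene, Sycp3, and in 1.48% of all genes. Of the members, 4 of 32 held an E-box (12.5%), and of Polycomb subunits beyond the members 7 of 20 (35%).

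The levels of these 3 genes, and of 11 of the 17 measured list genes in all, were highest in deletion cells at day 7. The share of all measured genes with their highest level on that array was not counted, so this number has no background here. The other 6 list genes peaked on another array: Stag3, Hormad1, Zfp979, Tex101, Stra8 and Tdrkh. Of these, the windows of Stag3 and Hormad1 held both the E-box and the E2F letters, as those of the 3 genes shown did, counting the bases after the start site. Dazl, which was highest in deletion cells at day 7, held none of the letters searched. Slc25a31 read 8.18, 9.49 and 8.97 in full-length cells and 8.78, 8.84 and 11.07 in deletion cells. Sycp3 read 9.09, 9.59 and 9.68 against 8.55, 9.86 and 10.84. Ddx4 stayed between 9.06 and 9.34 on 5 arrays and reached 10.09 on that array.

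The methyl-CpG binding proteins held the members with the highest differences over time. Mbd2, which brings the NuRD deacetylase complex to methylated DNA, read 8.34, 8.80 and 9.54 in full-length cells and 7.92, 8.61 and 9.10 in deletion cells. Each later day was higher in each line, and day 7 over day 0 was 1.19 (SE 0.26, adjusted p = 0.080), which is 2.28-fold. A second Mbd2 probe set gave 0.87 and 0.27 for the same difference in full-length and deletion cells. Mbd1, which binds methylated DNA through its own MBD domain and recruits SETDB1, read 7.31, 7.60 and 8.63 against 7.63, 8.33 and 8.18. Full-length cells had their highest value at day 7 and deletion cells at day 4. Day 7 over day 0 was 0.94 (SE 0.37, adjusted p = 0.249), but another Mbd1 probe set gave 0.05 and -0.27 in the 2 lines.

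Mbd3, the NuRD subunit that hardly binds methylated DNA, went the other way. Its levels of 11.18, 10.77 and 10.35 in full-length cells and of 10.69, 10.71 and 10.19 in deletion cells gave a day 7 over day 0 difference of -0.67 (SE 0.19, adjusted p = 0.143). Day 7 was the lowest day in each line. The deacetylase genes Hdac1 and Hdac2 and the LSD1 gene Kdm1a were lower at day 7 than at day 0 in both lines as well, by small amounts. Hdac1 lay between 12.05 and 12.59, Hdac2 between 12.38 and 12.77 and Kdm1a between 12.84 and 13.39, each over all 6 arrays.

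**Figure D3:**
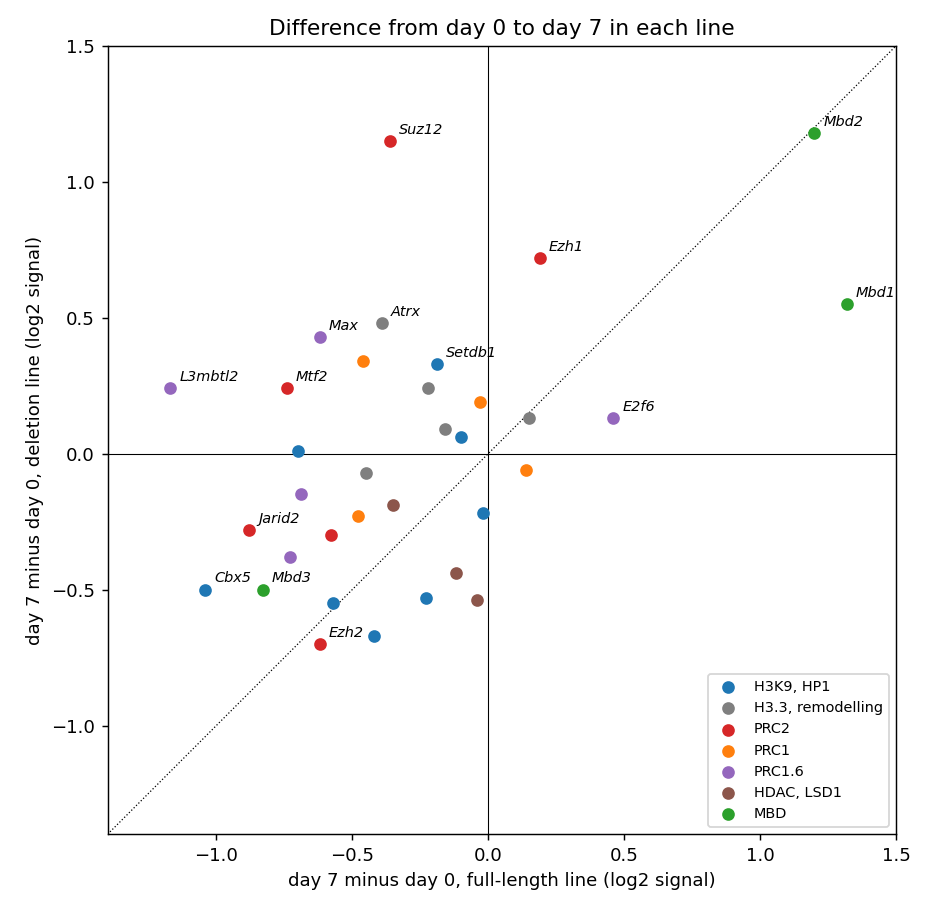
Difference of day 7 minus day 0 (log2 signal) of each of the 34 measured members in the full-length line (horizontal) and the deletion line (vertical), coloured by complex, with 1 array for each line and day and the dotted diagonal marking equal differences. Mbd2 lay near the diagonal at 1.20 and 1.18, and Suz12 (-0.36 and 1.15) and L3mbtl2 (-1.17 and 0.24) lay above it.

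The line difference was then read at each day, where 1 array was set against 1 array and no test was possible. At day 0, 0 members were at least 1.5-fold higher in deletion cells and 2 lower (Ezh1 and Suz12), against 8.54% and 10.3% of all measured genes. The second Ezh1 probe set and 3 of the 5 other Suz12 probe sets were higher in deletion cells at day 0. At day 4, 2 were higher (Morc3 and Mbd1) and 2 lower (Cbx5 and Max), against 7.34% and 9.1%. At day 7, 12 members were higher, 35.3% of those measured, against 10.7% of all genes, and 1 was lower (E2f6), against 18.2%. A brighter array of at least 2 times the floor was required throughout.

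The 12 were L3mbtl2, Morc3, Suz12, Mga, Max, Hells, Setdb1, Mtf2, Atrx, Bmi1, Cbx1 and Daxx, with day 7 differences from 0.62 to 1.13. They came from the H3K9, H3.3, PRC2, PRC1 and PRC1.6 groups. The 3 deacetylase and LSD1 genes lay between -0.43 and -0.04 at day 7 and the 3 methyl-CpG binding genes between -0.45 and -0.16, all lower in deletion cells. At least 2-fold differences at day 7 were seen for 2 of the 12, L3mbtl2 and Morc3, against 3.95% of all genes. Of 4207 genes with a mean level of at least 10, 8.87% were at least 1.5-fold higher in deletion cells at day 7, and of 24 such members 10 were (41.7%). In the opposite direction the share was 9.06%, and 0 of the 24 members. At days 0 and 4, 0 and 1 of the 24 were higher (4.47% and 5.13% of the 4207), and 1 and 1 lower (6.16% and 2.66%). Of the 12, 9 had other probe sets at or above the floor, 29 in all. Of these, 25 were higher in deletion cells at day 7 and 2 lower, with values from -0.08 to 2.56, and 19 were at least 1.5-fold higher. The 12 genes were picked by their difference on these same 2 arrays, so this count is not separate support. Probe sets of 1 gene are not independent, and Atrx held 6 of the 29 and Suz12 5. The share over all dimmer probe sets was not counted. The same 29 probe sets were higher at day 0 in 20 cases, 8 of them at least 1.5-fold, and lower in 9, 2 of them at least 1.5-fold. At day 4 they were higher in 18 cases, 12 of them at least 1.5-fold, and lower in 10, 3 of them at least 1.5-fold. Some of these dimmer probe sets thus differed between lines at days 0 and 4 as well, in both directions.

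On the 2 day 7 arrays, pluripotency markers summed to 86476 in the full-length and 109428 in deletion cells, extraembryonic endoderm markers to 1635 and 4985, fibroblast markers to 1893 and 2520, trophoblast markers to 4589 and 3137, and the S phase and mitosis genes to 129939 and 126040. The part of these differences in the members' values was not tested. The median over members of the day 7 minus day 0 difference was -0.38 in full-length cells, with 2 members at least 1.5-fold higher and 10 lower, against 19.1% and 11.2% of all genes. It was -0.02 in deletion cells, with 3 higher and 2 lower, against 14.9% and 10.9%.

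**Figure D4:**
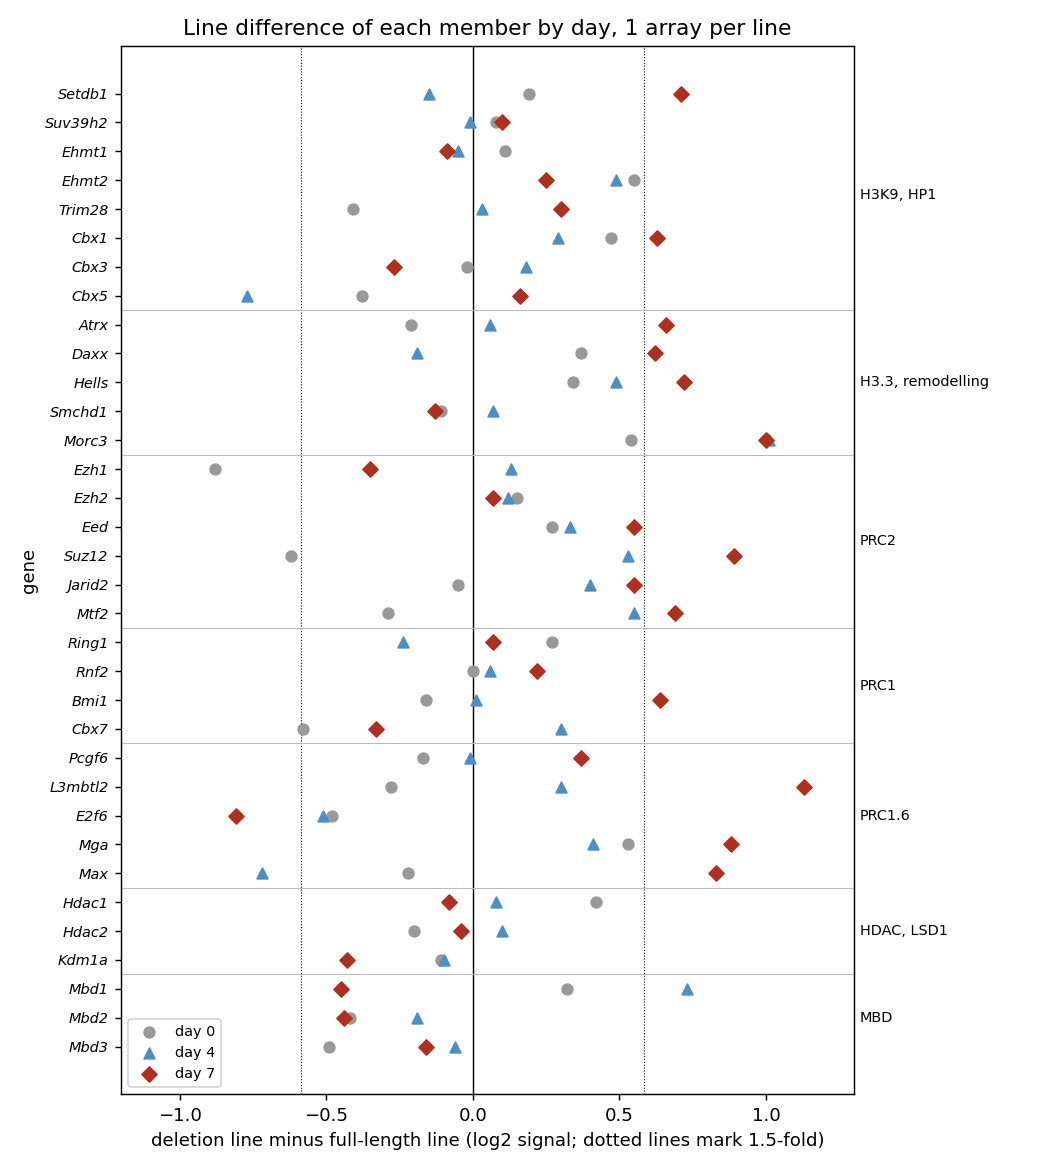
Deletion line minus full-length line (log2 signal) for each of the 34 measured members at day 0 (grey circles), day 4 (blue triangles) and day 7 (red diamonds), 1 array per line and day, with dotted lines at 1.5-fold. At day 7, 12 members lie right of the upper line, from 0.62 to 1.13, and E2f6 alone lies left of the lower one.

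**Figure D5:**
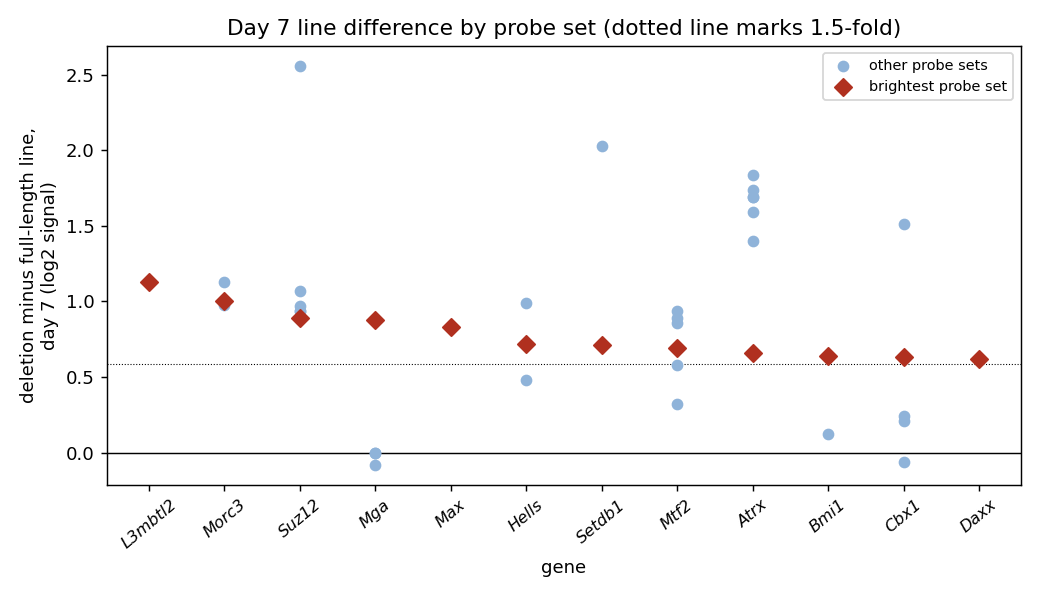
Deletion line minus full-length line at day 7 (log2 signal) for each probe set at or above the floor of the 12 genes, with the brightest probe set as a red diamond and the others as blue circles. Atrx and Suz12 probe sets all lie above 0, whereas the other Mga probe sets lie at or below it, down to -0.08.

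Other genes of these systems were read from further lists. Of 25 measured Polycomb subunits beyond the members, 1 rose and 0 fell at day 4 over day 0 (0.881% and 0.7% of all genes), and 1 rose and 0 fell at day 7 over day 0 (0.64% and 0.392%). Yaf2, a subunit of variant PRC1, had levels of 9.24, 10.52 and 10.51 in full-length cells and of 9.27, 10.28 and 10.09 in deletion cells. Day 4 exceeded day 0 in both lines, by 1.15 (SE 0.21, adjusted p = 0.047), and its other probe set gave 0.99. Pcgf5, the PCGF subunit of PRC1.5, read 10.46, 11.37 and 11.81 against 9.88, 10.93 and 10.92. Day 7 over day 0 was 1.20 (SE 0.19, adjusted p = 0.042), and another probe set gave 1.38.

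Of 18 measured H3K9 and HUSH partners, 1 rose at day 4 over day 0, Pphln1, which encodes the HUSH subunit periphilin. It read 9.89, 11.06 and 10.34 in full-length cells and 9.20, 10.52 and 9.60 in deletion cells, with day 4 the highest day in each (1.25, SE 0.19, adjusted p = 0.033). Another probe set gave 1.46. Of 18 NuRD, Sin3 and CoREST partners, 1 rose at day 7 over day 0, the Sin3 scaffold gene Sin3b, with 12.60, 12.82 and 14.01 against 12.21, 12.90 and 13.37 (1.29, SE 0.20, adjusted p = 0.039). Its 2 next brightest probe sets gave 1.27 and 1.11 and its 2 dimmest 0.13 and -0.53. Of 12 opposing histone demethylases, 0 were called in any comparison, with 0 higher and 1 lower at an unadjusted p under 0.05 for day 4 over day 0. The lowest difference was that of the H3K9 demethylase Kdm3a, with 12.72, 11.26 and 11.31 in full-length and 12.34, 11.24 and 12.72 in deletion cells (-1.28, SE 0.38, adjusted p = 0.151). None of the calls of Yaf2, Pcgf5, Pphln1 and Sin3b survived the omission of any single array, with differences that stayed between 0.97 and 1.53. An omitted array of a compared day leaves that day with 1 array, so losing a call there says little about a single gene. Under 10 other settings these calls were kept in 1 for Yaf2, 2 for Pcgf5, 5 for Pphln1 and 3 for Sin3b.

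Developmental genes that Polycomb is known to hold silent in stem cells were measured for 11 of 20 list entries. A gene at the floor at day 0 passed the filter only through later arrays where it was higher, so directions over this list are partly set by the filter and are not counted here. Fgf5, a growth factor gene of the early epiblast, read 5.52, 11.70 and 9.21 in full-length cells and the floor, 10.26 and 7.80 in deletion cells. It was called higher at day 4 over day 0, as were 0.881% of all genes, and at day 7 over day 0 (3.06, SE 0.38, adjusted p = 0.025), as were 0.64%. Under 10 other processing settings the first call was kept in 8 and the second in 4. The first call was kept without 2 of the 6 arrays in turn, those of day 7, and lost without the others. The second was lost without any single one. An omitted array of a compared day leaves that day with 1 array, so losing a call there says little about Fgf5. The differences stayed between 4.90 and 6.17 for the first call and between 2.43 and 3.70 for the second.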

How the data were processed

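The deposited values are log2 MAS5 signals, made by the authors per the submitters' processing notes; the sources used here do not give the MAS5 version, scaling target or log base. The base follows from the values (0 to 15.68): after raising 2 to them, the mean without 2% at each end was 496.7 to 496.9 on all 6 arrays. This global scaling would remove a shift that most genes share. Values below a floor, the median of the arrays' 40th percentiles (signal 41.2), were set to it. Platform annotation gave 34945 probe sets 1 gene symbol, 932 several and 9160 none, and those with several or none named no gene. A gene was measured where the mean signal of its brightest probe set reached the floor.

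Line and day were fitted as additive factors with limma 3.58.1 in R 4.3.3 (variance trend, two-sided, Benjamini-Hochberg at 0.05 over 13277 genes), with 2 residual degrees of freedom and 5.63 from the prior. The script was tested on simulated data. Nothing says that samples came from separate cultures, so p-values measure only the spread between these arrays, whose number limits the precision. Single arrays were compared by counts at least 1.5-fold or 2-fold apart. Members and lists were chosen with earlier results of these data known. Values on every array are given for the 5 highest and 5 lowest members of each modelled comparison and the 3 highest and 3 lowest line differences of each day. Those of other members, and the 4 promoters, were chosen after values were seen. Of other lists, called genes are named. Promoter windows are RefSeq's, of GRCm38.p6.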

Additional observations from a re-analysis of the deposited data

Results flagged for a closer look

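Members whose difference over time had opposite signs in the 2 lines, and was at least 2-fold apart between them, were listed. Each value is 1 array minus 1 array, and the difference between lines was not tested. From day 0 to day 4, Ezh1 differed by -0.40 in the full-length and by 0.61 in the deletion line, and Suz12 by -0.97 and 0.18. Of the 5 other Suz12 probe sets, 4 were lower at day 4 than at day 0 in both lines, so the opposite signs depend on the probe set. From day 4 to day 7, Max differed by -0.62 and 0.93, and Mbd1 by 1.03 and -0.15. From day 0 to day 7, Suz12 differed by -0.36 and 1.15, L3mbtl2 by -1.17 and 0.24, and Max by -0.62 and 0.43.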

How the results depend on the processing

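No member was called in any of the 4 comparisons under any of the 16 alternatives, while the number of all genes called depended on the setting. For day 4 over day 0 it was 210. It became 2 without a variance prior, 16 with no trend, 18 with the line left out of the model, 13 when probe sets were averaged, 135 with a higher floor and 0 when dim genes were kept. For day 7 over day 0 it was 137. It became 0 without a variance prior, 3 with no trend, 12 without the line, 3 when probe sets were averaged, 67 with no floor, 65 with a higher floor, 0 when dim genes were kept and 213 with equal medians. For day 7 over day 4 it was 2, both higher. It became 0 without a variance prior, 0 with no trend, 1 without the line, 0 when probe sets were averaged, 1 with no floor, 1 with a higher floor, 1 with quantile normalization and 41 with equal medians (27 higher and 14 lower). Leaving out 1 array gave 0 to 129, 0 to 10 and 0 to 0 genes for these comparisons, where a day left with 1 array was assumed to vary like the others; for day 4 over day 0 it was 0 without any day 0 or day 4 array, 100 without the full-length and 129 without the deletion day 7 array. The causes were not tested.

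The sign of a named member's difference turned in 5 cases. The Ezh1 line difference became 0.071 when probe sets were averaged. Leaving out arrays in turn, Cbx7 at day 7 over day 4 ranged from -0.68 to 0.073 (the latter without deletion day 4), Mbd1 from -0.048 (without full-length day 7) to 0.93, and Suz12 at day 7 over day 0 from -0.27 (without deletion day 0; -0.073 without deletion day 7) to 1.06. The members' median for day 7 over day 4 ranged from -0.15 to 0.069, the latter without full-length day 7. The 13 members at least 1.5-fold apart between lines at day 7 numbered 12 when probe sets were averaged and 13 under the other floors and scalings; with equal medians those of days 0 and 4 went from 2 to 4 and from 4 to 7. The comparison with genes of a mean level of at least 10 was added after seeing the data. No paired analysis was possible because each line and day has 1 array, so replicate numbers pair nothing; the day comparisons are already made within lines, and leaving the line out, above, is their unpaired form.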
